A study of Mus musculus and Rattus norvegicus with 2 samples.

Results

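Reads whose matched GenBank record carries no RNA type were examined in small RNA libraries from caput epididymal sperm of mouse and rat. The caput is the first segment of the epididymis, where sperm arriving from the testis begin to mature. Each species had 1 library: sperm of C57BL/6 mice aged 2 months, and sperm of young adult Sprague Dawley rats weighing 450 g. No treatment is labelled, the labels give a selection of 18 to 45 nt, and no marker list for sperm or other cells was applied to these records. Members were all listed sequences whose matched entry is a GenBank record with the type printed as unknown. They comprised 38724 of 914516 distinct mouse sequences and 28940 of 650877 distinct rat sequences, together 67664 of 1565393. These held 272762 of 11760708 mouse reads and 245967 of 14652889 rat reads. The mouse reads lay under 3436 records and the rat reads under 495, and 0 records occurred in both libraries. This 0 concerns record names and not RNAs, since 206029 of these rat reads had a sequence also listed in mouse. With 1 library per species there is no replicate check, so intervals (95%, exact Clopper-Pearson for shares, exact conditional binomial for ratios) cover counting error only and no p-value is given.

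A record of unknown type is not an RNA class. It can be a gene record whose type was not entered, or a genomic clone that holds many genes and repeats. Box C/D small nucleolar RNAs (snoRNAs) are released from introns of host genes and guide the 2′-O-methylation of rRNA. Their conserved C box lies near the 5′ end and their D box near the 3′ end, and these boxes bind the proteins that protect the ends of the mature RNA. Transfer RNAs are cut in sperm and in the epididymis into fragments, of which 5′ fragments are the best known. Among tRNAs, histidine tRNA is unusual in that an enzyme adds a G in front of its first encoded base. LINE-1 elements are transposons present in many copies in rodent genomes, so a piece of one can be found in many unrelated records.

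The sequences that carried most mouse reads were nearly complete box C/D snoRNAs, led by a 73-nt form of Snord55 with 66679 reads. The 4 genes that follow it among the long reads are shown with the letters TGATG of the C box and CTGA of the D box in capitals.
Snord2, 63 nt, 14802 reads: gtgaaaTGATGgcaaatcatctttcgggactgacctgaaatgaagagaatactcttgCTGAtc
Snord82, 65 nt, 3298 reads: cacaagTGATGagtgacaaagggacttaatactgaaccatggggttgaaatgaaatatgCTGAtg
Snord34, 63 nt, 1997 reads: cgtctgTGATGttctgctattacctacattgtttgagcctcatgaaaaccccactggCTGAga
Gm26224, 66 nt, 1281 reads: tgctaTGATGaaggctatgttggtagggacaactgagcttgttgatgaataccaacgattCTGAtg
A second Snord55 sequence of 74 nt had 10315 reads and carried 1 more base at the 5′ end, and a second Snord2 sequence of 62 nt had 7617 reads and lacked the first base of the 63-nt form.

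The sequences that carried most rat reads were 5′ fragments of histidine tRNA with 1 base in front of the encoded start, which is in capitals. They differ only in their first base or their last base, and the mouse library listed each under GenBank records typed as tRNA.
32 nt, 81951 rat and 43386 mouse reads: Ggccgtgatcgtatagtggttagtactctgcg
31 nt, 33140 rat and 19871 mouse reads: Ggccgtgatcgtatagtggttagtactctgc
35 nt, 25177 rat and 5214 mouse reads: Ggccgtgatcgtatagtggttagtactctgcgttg
30 nt, 21846 rat and 2413 mouse reads: Ggccgtgatcgtatagtggttagtactctg
34 nt, 8387 rat and 16541 mouse reads: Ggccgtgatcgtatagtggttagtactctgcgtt
The most abundant form that begins with another base is shown for comparison.
32 nt, 4883 rat and 4327 mouse reads: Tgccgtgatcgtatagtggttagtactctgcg

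The remaining large group in mouse was a set of repeat-derived sequences, of which 5 are shown from different records. The first 4 share a 16-nt stretch, in capitals, and end 2 bases after it. The fifth leads NG_018267.1, the record with most repeat reads, in which this stretch occurred in only 23 of 12564 reads.
A730017L22Rik, 18 nt, 5807 reads: ATTCTGACTGGTGTGAgg
A130077B15Rik, 18 nt, 808 reads: ATTCTGACTGGTGTGAga
Kcnq1ot1, 33 nt, 847 reads: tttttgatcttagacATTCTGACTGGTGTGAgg
NR_033146.1, 35 nt, 761 reads: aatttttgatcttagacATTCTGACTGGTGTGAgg
NG_018267.1, 26 nt, 2215 reads: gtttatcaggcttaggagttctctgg

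Records of unknown type were a small part of both libraries and held different RNAs. Their share was 2.32% in mouse (2.31 to 2.33) and 1.68% in rat (1.67 to 1.69), and the log2 ratio of rat over mouse was -0.47 (-0.47 to -0.46). The direction of this ratio rested on the long mouse reads and on counting reads rather than sequences. It was 0.30 without reads of 60 nt or more, 0.44 with sequences of 18 to 45 nt only, and 0.0705 when distinct sequences were counted. It was -2.63 among reads with no mismatch and -1.07 without the entry SNORD58, a snoRNA entry outside this set that weighs on the mouse total. Reads were concentrated in few records, since the 10 leading records held 59.6% of mouse and 86.1% of rat reads of unknown type. Of these mouse reads, 79.9% matched their record without a mismatch, against 9.40% in rat. Under Rfam tRNA entries, which held 55.3% of listed rat reads, this share was 51.6% in mouse and 12.6% in rat. Under mRNA entries it was 88.0% in mouse and 90.5% in rat. A lower rat share was thus not confined to records of unknown type.

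The records themselves were of different kinds. In mouse, 71.2% of the reads lay under RefSeq RNA records (NR), 8.29% under RefSeq gene-region records (NG), 7.83% under cDNA clones (AK) and 5.49% under records that begin with AJ, which include several snoRNAs. In rat, 95.7% lay under 408 genomic clones (AC) and 0.741% under RefSeq RNA records. Of the distinct member sequences, 85.1% in rat had 1 read, against 49.7% in mouse. The same share over all listed sequences was not computed. By reads, the rat members were the more concentrated, with 76.0% in the 10 leading sequences, against 43.3% in mouse.

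Sequence content was read from 14-nt words shared with tRNA, snoRNA, snRNA, rRNA and other small RNA references. In mouse, snoRNA sequences made up 55.2% of reads of unknown type (55.0 to 55.4), repeat sequences 12.2%, snRNA 2.18%, 4.5S RNA (a rodent RNA related to a short interspersed repeat) 2.09%, other small RNA 2.03% and rRNA 1.39%. A further 24.2% had no class. In rat, tRNA sequences made up 82.4% (82.3 to 82.6), 4.5S RNA 1.12%, and 14.8% had no class. The tRNA references were listed reads under Rfam tRNA entries only, so tRNA parts that are rare there can lack a class. snoRNA content was 150648 reads in mouse and 445 in rat, a log2 ratio of -8.72 (-8.86 to -8.59) over listed reads. tRNA content was 1134 reads in mouse and 202797 in rat, a log2 ratio of 7.17 (7.08 to 7.25). The tRNA ratio concerns where each library's reads were listed, since the mouse counterparts of the rat tRNA reads stood under records with a type. For snoRNA, the Rfam entries outside this set, among them SNORD58, also held 36.5% of listed mouse reads and 0.432% of rat reads. The snoRNA genes among the references were mouse genes, and how far this lowers the rat count was not tested.

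**Figure D1:**
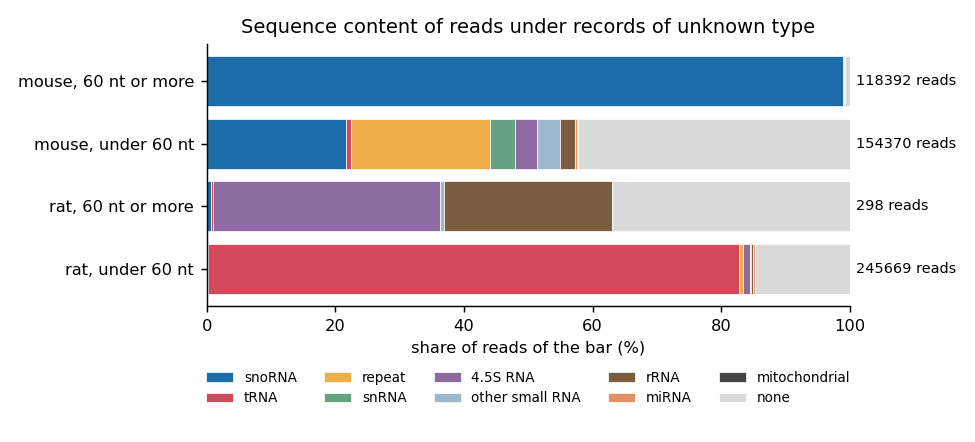
Share of reads of unknown type (x axis, %) by sequence content for mouse and rat reads of 60 nt or more and under 60 nt, with the number of reads at the right of each bar. Long mouse reads were 98.9% snoRNA and short rat reads 82.5% tRNA, whereas the largest piece of the short mouse reads, 42.2%, had no class.

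Long reads separated the libraries further. Mouse reads of 60 nt or more numbered 118392, or 43.4% of mouse reads of unknown type (43.2 to 43.6), in only 2485 of the 38724 sequences. Among mouse reads under other entries, 2.92% were this long. The mouse snoRNA entries, the most similar part, held 263569 long reads. These were 6.00% of the reads there, or 57.3% without SNORD58. Among snoRNA-content reads of unknown type, 77.7% were long. This share keeps its own leading gene, Snord55, which had 82626 of those 150648 reads, 97.3% of them long. The share without Snord55 was not computed, so 77.7% and 57.3% are not a like comparison. In rat, 298 of the reads of unknown type reached 60 nt, or 0.121% (0.108 to 0.136), against 0.451% under other rat entries. Over listed reads, the log2 ratio of long reads of unknown type was -8.95 (-9.12 to -8.79), and that of shorter ones was 0.35 (0.34 to 0.36). All of these long reads lie above the labelled selection of 18 to 45 nt. The longest sequences were 96 nt in mouse and 95 nt in rat.

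**Figure D2:**
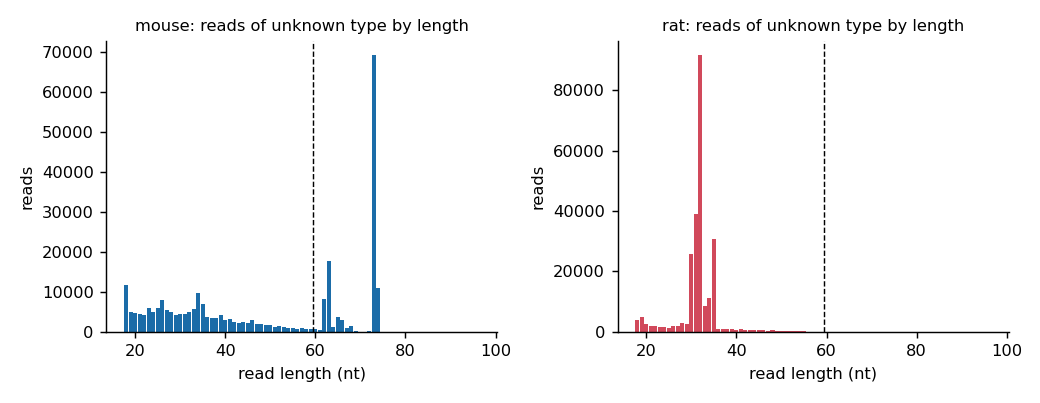
Number of reads of unknown type (y axis, linear, with its own scale in each panel) against read length in nt (x axis) for the mouse and the rat library, with a dashed line at the limit of 60 nt. Mouse shows a peak of 69234 reads at 73 nt and rat a peak of 91618 reads at 32 nt.

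The long mouse reads were box C/D snoRNAs almost throughout. snoRNA sequences made up 98.9% of them (98.9 to 99.0), and 1288 reads had other content or none. Their 5 most abundant sequences held 102711 reads, or 86.8% of the long reads. By gene, Snord55 took 67.9% of the long reads, Snord2 21.1%, Snord82 4.52%, Snord34 1.99% and Gm26224 1.20%. At least 1 long read was found for 20 snoRNA genes or gene groups, of which 10 had 100 or more. The C box letters TGATG occurred in the first 15 bases of 98.2% of long mouse reads and the D box letters CTGA in the last 14 bases of 98.0%, read on the strand of the read. Both were present in 97.6% of long reads and in 3.91% of mouse reads of unknown type under 60 nt. Among long mouse reads under other entries both were present in 80.7%, among those under mRNA entries in 7.05%, and among the 298 long rat reads of unknown type in 0%. The 6-letter form TGATGA was in 75.0% of the long mouse reads, because Snord2 and Snord34 carry another base after TGATG, as their sequences above show.

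Snord55, the leading mouse record, was listed almost only as a long form. The record held 82733 reads, or 30.3% of mouse reads of unknown type, all on the strand of the record, and 97.3% were of 60 nt or more. Of reads that matched the annotated 79-nt gene exactly, 85.8% began at base 2 and 97.4% ended at base 74. Both ends lay within 2 bases of these positions in 96.8%. The 2172 exact reads under 60 nt were most often 39 nt long, and 68.2% of them kept the 5′ end while 31.8% kept the 3′ end. By shared words, 0 mouse reads of Snord55 stood under other entries examined, whereas 172 rat reads shared words with the mouse gene, none of them of 60 nt or more and 171 of them under mRNA records.

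Snord2 was the next most abundant snoRNA and came with more short pieces. In GENCODE vM21 on GRCm38 it lies at chr16:23108953-23109021 on the plus strand within Eif4a2, a translation initiation factor gene, where a retained-intron transcript covers it. It had 30616 reads under 2 records, which held 26658 (NR_030705.1) and 4011 (AJ010680.1) reads in all, and 81.8% of the gene's reads were of 60 nt or more. The split between the records followed length: 92.0% of the reads of NR_030705.1 were long, against 12.6% of those of AJ010680.1, whose leading sequence was a 35-nt 5′ piece with 1058 reads. Of exact reads, 61.6% began at base 3 of the 69-nt gene and 81.0% ended at base 65. In rat, 0 reads shared enough words with mouse Snord2, which bears only on these words because the rat sequence was not used here.

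Snord82 and Snord34 were shared between records with and without a type. Snord82 lies at chr1:86356261-86356330 on the minus strand in an intron of Ncl, which encodes nucleolin, a protein of the nucleolus. It had 6077 reads of unknown type, or 52.3% of its mouse reads, and 5532 under the Rfam snoRNA entry. Of its exact reads of unknown type, 97.3% began at base 3, while the ends were more varied, with 56.9% at base 67. Snord34 lies at chr7:45126601-45126670 on the minus strand in introns of Rpl13a, a ribosomal protein gene of the large subunit, and of the overlapping Gm45713. It had 2451 reads of unknown type, or 25.6% of its mouse reads, and 6963 under a GenBank record typed as rRNA. Both ends lay within 2 bases of the leading form in 95.04% of its exact reads.

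snoRNA genes of the Gas5 locus varied in how complete their reads were. Gas5 is a non-coding host gene whose introns carry several box C/D snoRNAs. Gm26224 at chr1:161035394-161035473 had 2033 reads, of which 70.1% were of 60 nt or more and 90.3% of the exact ones began at base 8. A second end lay at base 45 of the gene, where 19.9% of its exact reads stopped. Its reads under 60 nt were most often 38 nt long and of which 80.4% kept the 5′ end. Gm25789 at chr1:161038308-161038383 took 0.526% of mouse reads of unknown type, of which 51.6% were long, and 99.7% of its shorter exact reads kept the 5′ end, against 0% that kept the 3′ end. A further 7148 mouse reads of Gm25789 stood under GenBank snoRNA records.

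**Figure D3:**
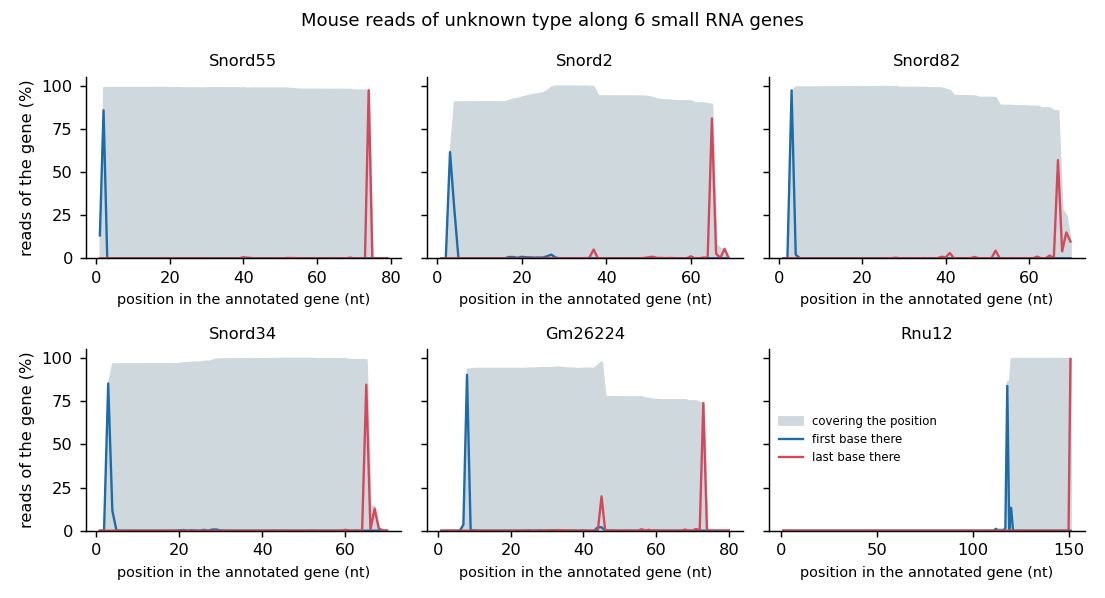
Share of exact mouse reads of unknown type (y axis, %) that cover each position of 6 annotated genes (grey), begin there (blue) or end there (red), against position from the 5′ end of the gene in nt (x axis). Snord55 reads span base 2 to base 74, and Rnu12 reads cover almost only the last 34 bases.

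Other small nuclear and nucleolar RNAs were mostly shorter pieces. U3, the snoRNA that acts in the first cleavages of the rRNA precursor, had 15916 reads over 9 records, or 5.84% of mouse reads of unknown type, with a median length of 38 nt and 5.59% of 60 nt or more. Rnu12, the U12 RNA of the minor spliceosome at chr15:83149644-83149794, had 5017 reads and 0 of 60 nt or more. Its leading 34-nt sequence had 4176 reads, spanned bases 118 to 151 of the 151-nt gene and so ended at its last base, as did 99.5% of exact reads. This 3′ piece is shown because it carried 82.4% of the reads of its record: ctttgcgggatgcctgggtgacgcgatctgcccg. Rny3, one of the Y RNAs that bind the Ro60 protein, had 2797 reads. These had no common start, with at most 7.69% at any base, but 73.6% ended at base 99. Snord104 had 3908 reads, of which 8.14% were long, and its leading sequence was a 46-nt piece with 973 reads. Only 10.8% of the Snord104 reads matched the annotated gene exactly, so their ends along the gene are not given. Long reads thus made up 0% to 8.14% of these 4 RNAs, against 97.3% for Snord55. Snord14c and Snord14d, box C/D snoRNAs of the heat shock protein gene Hspa8, cannot be told apart in their shared part. They had 1548 reads there and 0 long ones. Reads assigned to Snord14c itself numbered 381, of which 10.5% were long. Those assigned to Snord14d itself numbered 258, of which 10.9% were long. The 0 thus holds for the shared part only and not for these genes. Rn7sk, the RNA that holds the transcription elongation factor P-TEFb inactive, had 1072 reads, of which 5.32% were long.

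Reads that shared words with mouse Snord123 were listed mostly under different entries in the 2 libraries. No rat gene was used, so the rat reads are not shown to come from Snord123. The mouse gene lies at chr15:32241853-32241923 on the minus strand in an intron of Snhg18, a snoRNA host gene. Mouse had 884 reads of unknown type by gene assignment, 28.6% of them long, led by a 64-nt form that spans bases 4 to 67. Rat had 483 reads that shared words with the mouse gene, 482 of them under piRNA records, with a most common length of 24 nt and 0 long reads. Rat reads that shared words with mouse Snord82 numbered 429, all under the Rfam snoRNA entry, and their most common length was 37 nt against 64 nt over all mouse entries. Rny3 had 2984 mouse and 846 rat reads by shared words, of which 2807 and 68 were of unknown type, and the rat reads stood mostly (764) under mRNA records. Per 1000000 listed reads of each library, these counts were 254 in mouse and 57.7 in rat for Rny3, and 988 and 29.3 for Snord82. The words come from mouse genes, so bases that differ in rat lower the rat counts.

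Repeat sequences made up 33300 mouse reads, and 6 records held 98.1% of them. These were NG_018267.1 with 10115 repeat reads, A730017L22Rik with 7091, NR_033146.1 with 5781, Kcnq1ot1 with 4376, A130077B15Rik with 3448 and 4930470H14Rik with 1845. Kcnq1ot1 is known as a long non-coding RNA of an imprinted region. Its reads were 89.6% on the minus strand of the record, and 61.9% of them were repeat sequences. Reads on the minus strand made up 94.6% under NR_033146.1 and 95.9% under A130077B15Rik, but 0.811% under A730017L22Rik and 10.5% under NG_018267.1. The 16-nt stretch shown above nevertheless had almost only 1 orientation in the reads. It occurred in 16875 reads of unknown type, against 8 with its reverse complement, of which 5 lay under NR_033146.1 and 3 under A730017L22Rik. It occurred in 49542 mouse reads over all entries, against 24 reads with its reverse complement. It corresponds to the antisense strand of the second open reading frame of LINE-1, as background knowledge that no annotation used here tested. In rat, the same stretch occurred in 698 reads of unknown type over 94 records, and in 716 reads over all entries, against 2 with its reverse complement.

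Reads with this stretch shared their 3′ end and differed at the 5′ end. The stretch began exactly 18 bases before the end of the read in 99.9% of mouse and 99.1% of rat reads of unknown type that held it. It did so in 99.9% of the 32667 mouse reads with the stretch under other entries. The most common length was 18 nt in mouse, with 6969 reads, and 33 nt in rat, with 91 reads. In GENCODE vM21 transcripts, read on either strand, the 6 bases after the end of these mouse reads were TGGAAT for 100% of the 15463 matched reads of unknown type that came from sequences with 10 or more reads.

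The letters TGGAAT also stood after most repeat reads without the stretch, and the shorter TGG after most abundant reads of no class. Among the 11595 matched repeat reads without the stretch, from sequences with 10 or more reads, the transcripts continued with TGGAAT after 82.7% and with TGG after 97.8%. Over all 27048 matched repeat reads these shares were 92.6% and 99.1%. Among reads of no class TGG followed 85.7% and TGGAAT 17.4%, with TGGATT as the most frequent continuation. Only 10405 of the 66032 reads of this class were abundant enough and matched. Among 52908 matched snoRNA reads TGG followed 0.539% and among 4.5S reads 0.922%. At 10 bases beyond the read end, TGG stood in 0% of repeat reads, 0.923% of reads of no class and 2.30% of reads under mRNA entries, which serve as a comparison. TGG directly followed 70.4% of those mRNA-entry reads. By record, TGGAAT followed 99.2% of matched reads of NG_018267.1, 100% of those of A730017L22Rik and of A130077B15Rik, 95.9% of those of Kcnq1ot1 and 94.2% of those of NR_033146.1. For 4930470H14Rik the usual continuation was TGGGCC, after 1712 of 1896 reads. As background, TGG and TGGAAT resemble the start of the 3′ adapter of common Illumina small RNA kits. No source used here gives the adapter of these libraries or how it was trimmed, and the part of adapter trimming in these ends was not tested.

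**Figure D4:**
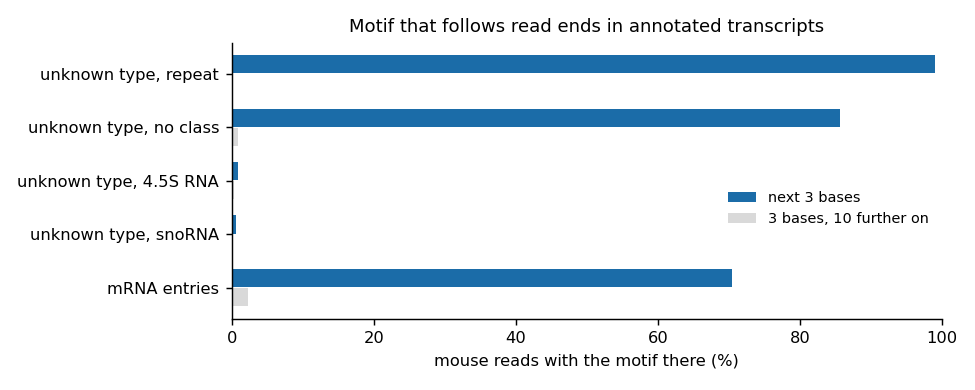
Share of matched mouse reads (x axis, %) for which annotated transcripts continue with TGG directly after the read (blue) or 10 bases further on (grey), for 4 content groups of unknown type and for mRNA entries. The share directly after the read is 99.1% for repeat reads and 0.539% for snoRNA reads.

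Malat1, an abundant nuclear long non-coding RNA, showed no leading fragment. Its record AY722410.1 held 4360 reads in 1507 sequences, 0.0917% of them on the minus strand, and the most abundant sequence had 185 reads. All reads of its 40 leading sequences (100%) occurred in annotated Malat1 transcripts. TGG followed 68.6% of its matched reads. The 4.5S record NG_001436.3 held 3995 reads with a median length of 35 nt. The 5S rRNA record NG_001440.3 held 3207 reads, of which 1023 were a 27-nt sequence that also had 926 reads in rat, there under mRNA records.

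In rat, 1 genomic clone, AC241244.3, held 201244 of the 245967 reads, or 81.8% (81.7 to 82.0). These lay 99.98% on the minus strand of the clone, written in 1285 sequences with a median length of 32 nt. The start of histidine tRNA, allowing any letter at its sixth base, was found in 199294 of these reads, or 99.0%. Of these, 92.1% had a G in front of the encoded start (92.0 to 92.2), 5.24% had T, 0.995% had A and 0.0316% had C, while 1.57% began at the encoded start itself. Counted from 1 at the first base of reads with 1 extra base, the mismatches to the clone at position 1 were C1G in 183591 of 196086 reads, C1T in 10449 and C1A in 1983. The G that led the rat reads was therefore not the letter of this clone. Beyond position 1, the most frequent mismatches were G7A in 1.39% and G7C in 0.786%, and the next, G32A, was in 0.159%.

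The entry of rat histidine tRNA reads went with the form of the read. Of 420404 rat reads with the start of this tRNA, 64.1% carried G in front (64.0 to 64.3) and 32.9% began at the encoded start (32.7 to 33.0). Those that began at the encoded start numbered 138166, of which 135042 were under the Rfam tRNA family and 2.26% under the clone. Those with G in front numbered 269579, of which 68.1% were under the clone and 31.9% under GenBank piRNA records. Under the piRNA records, 100% of the G-led reads ended at or before base 28 of the tRNA, against 1.16% under the clone. The clone's G-led reads ended most often at base 31 (45.6%), directly before the anticodon loop. Reads of 1 tRNA thus stood in 3 entry types that differed by their first base and their length. In mouse, 188662 of 188665 such reads stood under GenBank tRNA records, and 0 under records of unknown type.

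**Figure D5:**
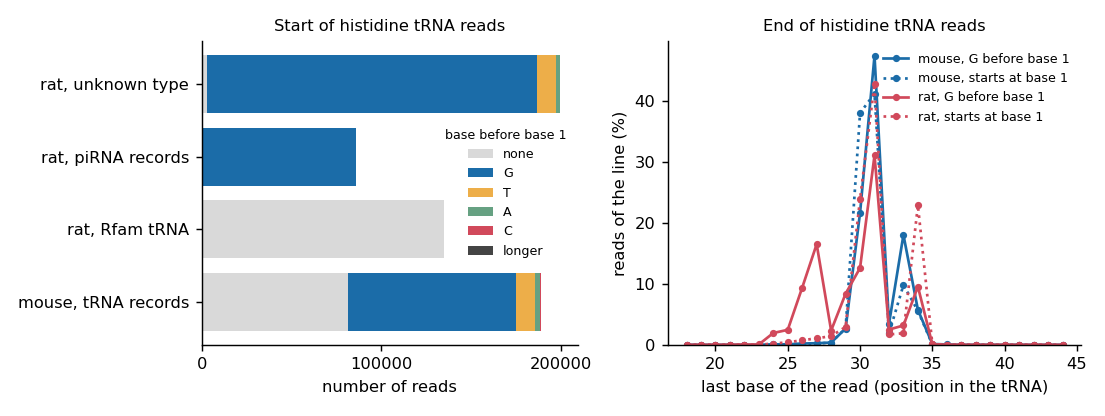
Left, reads with the start of histidine tRNA (x axis, number of reads) by entry type, coloured by the base in front of the encoded start. Right, share of reads (y axis, %) by the tRNA position of their last base (x axis) for reads with G in front (solid) and reads that begin at the encoded start (dotted). Reads of unknown type are nearly all G-led, and all 4 lines peak at base 31.

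Set over all entries, the front base of histidine tRNA differed between the libraries in degree. G stood in front in 49.7% of 188665 mouse reads (49.5 to 50.0) and in 64.1% of rat reads. T stood in front in 5.61% of mouse and 2.504% of rat reads, and A in 1.43% and 0.472%. The rat shares mix entries that differ: T led 5.24% of reads under the clone, 0.0918% under piRNA records and 0% under Rfam tRNA. For A these shares were 0.995%, 0% and 0%. Nearly all mouse reads stood under GenBank tRNA records, and the part of listing in the difference between libraries was not tested. Reads that began at the encoded start were 43.1% in mouse and 32.9% in rat. The sixth base was G in 98.9% of mouse and 98.6% of rat reads, followed by A in 0.701% and 0.874%. Ends at bases 30 and 31 led in both libraries, but G-led reads ending at base 27 were 16.5% in rat. With 1 library each, these differences exceed counting error, and the spread between animals is unknown.

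The other rat records were small. The leading sequences of the 3 records that follow the histidine tRNA clone are shown, with the reads of each sequence.
AF298889.1, 46 nt, 141 reads: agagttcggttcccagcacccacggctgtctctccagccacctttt
AF298888.1, 47 nt, 145 reads: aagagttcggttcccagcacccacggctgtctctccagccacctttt
NR_037704.1, 29 nt, 255 reads: ggatcagaagattgcaggttcgagtcctg
The first 2 differ by 1 base at the 5′ end. AF298889.1 and AF298888.1 held 3096 and 2291 reads, most of no class, and their leading sequences of 46 and 47 nt were listed in mouse under records typed as rRNA with 45 and 90 reads. NR_037704.1 held 1308 reads led by a 29-nt sequence with 255 reads. AC239701.6 held 738 reads, and AC239865.4 and AC246664.5 held 682 and 536, of which 93.5% and 97.9% had no class. Among 4.5S RNA records, AY228160.1 held 694 reads, AY228148.1 674, AY228150.1 571 and AY228147.1 536. The clone AC242381.4 had 377 reads, of which 71.1% (66.2 to 75.6) ended in CCA, the letters added to the 3′ end of tRNAs, and its leading sequence is shown with this end in capitals: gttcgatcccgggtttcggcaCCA. Across all reads of unknown type CCA ended 0.569% in rat and 0.476% in mouse. The 407 clones other than AC241244.3 held 34235 reads in 24741 sequences, or 13.9% of rat reads of unknown type, with a median of 57 and a highest count of 738 reads per clone. They lacked the strand bias of the leading clone, with 44.2% on the minus strand, and 88.3% of their reads had no class. Reads of no class can include tRNA parts, since 97.3% of the reads of AC242381.4 had no class although most ended in CCA. Of the 298 long rat reads, 35.2% were 4.5S RNA, 26.2% rRNA and 36.9% of no class.

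Sequences listed in both libraries made up 83.8% of rat reads of unknown type (83.6 to 83.9) and 13.99% of mouse reads (13.9 to 14.1). The other library rarely gave them the same type in the case of rat reads. In mouse, 96.1% of the shared rat reads stood under GenBank tRNA records and 0.427% under records of unknown type. Of the shared mouse reads, 45.6% stood in rat under records of unknown type, 29.2% under Rfam snoRNA entries and 22.1% under mRNA records. By distinct sequence, 1996 rat and 1306 mouse members were listed in both libraries, or 6.90% and 3.37%. The same shares over all listed sequences and reads were not computed, so members cannot be compared with other sequences here.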

How the data were processed

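The deposited tables give, per the file headers, 1 whole-number read count for each distinct sequence with its matched entry, strand and mismatches. Bowtie 0.12.7 and the builds mm9 and rn5 are named in the submitters' processing notes. Adapter trimming is not given in the sources used here. Members, reference classes and lists were chosen with earlier results of these data known. Sequences on the minus strand were turned to the read's orientation. A read took the class of a reference with which it shared at least 0.3 of its 14-nt words. References were listed sequences with 10 or more reads under typed entries, and GENCODE vM21 small RNA genes. Ties went first to tRNA, then snoRNA. Repeat words came from reads of 2 records typed as mRNA, a class added after the data were seen, used only where no other class reached the limit. snoRNA genes were assigned by 18-nt words, at least 0.5 of a read's. The last 18 bases of reads were looked up in GENCODE vM21 transcripts on both strands. The 1308 reads of NR_037704.1 were not assigned to a gene. Named records and sequences were the 10 leading records and 5 leading sequences of each library, the leading sequence of each of the 5 leading records, the 5 leading long mouse sequences, and content classes with at least 1% in either library. Further records and sequences were named after their values were seen. The sequence and genomic place of 1 leading snoRNA and the leading sequence of 1 rat record are not reported here. Coordinates are those of GRCm38, not of the builds named by the submitters. No rat annotation was used here. Depth was 11760708 listed reads in mouse and 14652889 in rat. The intervals cover counting error only, since PCR reads are not independent molecules, and a count of 0 allows up to 3 counts. The word classes and intervals were run on simulated data. Simulated reads of tRNA, snoRNA, snRNA and miRNA were drawn from mouse sequences that also gave the reference words. Rat sequences and the other classes were not simulated, so these runs cannot show how well they are recovered. Alternatives counted distinct sequences, exact reads or abundant sequences only, or changed lengths, words or totals. Python 3 libraries pandas, NumPy and SciPy were used.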

Additional observations from a re-analysis of the deposited data

How the results depend on the processing

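No paired analysis was possible because each species has 1 library. Every share moved by more than its counting interval under the alternatives run, so directions and sizes are given; the cause was not tested except where fewer reads or sequences enter by construction. The log2 ratio of rat over mouse for the share of unknown type was -0.47. It turned to 0.0705 by distinct sequences, 0.44 at 18 to 45 nt and 0.30 without reads of 60 nt or more. It was -2.63 with no mismatch, -0.38 for sequences of at least 10 reads, -0.65 without the leading sequence of each library and -1.07 without SNORD58. Counting distinct sequences gave tRNA content of 0.274% in mouse and 4.95% in rat, long reads 6.42% and 0.822%, the leading record 2.03% and 4.44%, and sequences listed in both libraries 3.37% and 6.90%. Reads with no mismatch gave tRNA content of 0.458% and 10.05%, long reads 52.3% and 0.848%, the leading record 36.6% and 0.593%, and shared sequences 13.4% and 31.1%. Sequences of at least 10 reads gave 0.476% and 95.4%, 57.4% and 0.00478%, 40.7% and 94.8%, and 17.7% and 96.3% for the same 4 measures. Without the leading sequence these were 0.550% and 73.7%, 25.1% and 0.182%, 7.79% and 72.7%, and 18.5% and 75.6%. Words of 18 nt gave tRNA content of 0.386% and 81.5%, and a limit of 0.6 of words 0.383% and 81.1%. Reads over 45 nt were 50.3% and 1.37%. Added after seeing the data, the 16-nt stretch alone gave 6.19% repeat reads in mouse, and snoRNA content was 21.7% among mouse reads under 60 nt. The rat result for the leading clone thus rests on mismatched reads and on few sequences, and the mouse result on 1 long sequence with 66679 reads.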

Other observations

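Among mouse reads of 24 to 32 nt, T was the first base in 31.1% of the 20198 reads of no class (30.5 to 31.7) and in 49.5% of the 10556 repeat reads (48.5 to 50.4). In rat it was the first base in 38.2% of 12643 reads of no class and in 63.8% of 530 repeat reads. U at the first base is a known feature of many piRNAs, and these shares are given as values only. Slc38a6, an amino acid transporter gene, held 97.1% of the reads of the 40 leading sequences of AB250377.1, and TGG followed all 1567 of its matched reads in annotated transcripts (100%).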
